A study of Homo sapiens with 2 samples.

Results

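DNA methylation on cytosine is written, copied and removed by a small set of proteins, and 8 genes of that set are described here in human embryonic stem cells (hESCs) that had been exposed to bone morphogenetic protein 4 (BMP4). The genes were chosen by symbol from the 33538 genes listed in the count tables: DNMT1, UHRF1, DNMT3A, DNMT3B, DNMT3L, TET1, TET2 and TET3. DNMT3A and DNMT3B are the de novo DNA methyltransferases, and DNMT3L is a catalytically inactive relative that stimulates them. DNMT1 copies methylation onto the new DNA strand behind the replication fork, and UHRF1 recognises hemimethylated DNA and brings DNMT1 there. TET1, TET2 and TET3 oxidise 5-methylcytosine, which opens the way to its removal. Pluripotent human cells are known for high DNMT3B and TET1.

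Transcripts were counted by single-cell RNA-seq in 2 libraries, each from cells kept in mTeSR1 medium with 50 ng/ml BMP4 for 48 h. The library labelled WT came from H1, an established hESC line. The library labelled GATA3 KO came from KO-GATA3-06, a line grown from a single H1-derived cell after Cas9 targeting of the transcription factor gene GATA3. This line also carries a doxycycline-inducible Cas9 cassette that H1 lacks, so clone, cassette and genotype cannot be told apart. The protocol text of the library labelled WT gives 1 h of BMP4, whereas its title and duration give 48 h, and the latter was used.

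There was 1 library per group and no replicate. No test was therefore possible, and every interval in brackets is a 95% counting interval that leaves out differences between cultures. The deposited files held 3802 and 6221 cells with 200569649 and 284280464 unique molecular identifiers (UMIs) in the libraries labelled WT and GATA3 KO. After removal of cells with over 7500 detected genes or over 25% mitochondrial counts, 2519 and 4450 cells were kept, with medians of 44415 and 43131.5 UMIs. The libraries shared 8 cell barcodes, 5 of them among the kept cells. Levels are given as UMIs per 1000000 UMIs (CPM) over all cells of a group. Each transcript is tagged near its 3′ end, so its length does not set its UMI count. GATA3 itself stood at 12.7 and 10.9 CPM, so its transcript did not check the labels, and all directions between libraries rest on them.

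DNMT1 (ENSG00000130816) lies on chromosome 19 at 10133342 to 10231286 on the minus strand of GRCh38, and UHRF1 (ENSG00000276043) on the same chromosome at 4903080 to 4962154 on the plus strand. DNMT3A (ENSG00000119772) is on chromosome 2 at 25227855 to 25342590, minus strand, and TET3 (ENSG00000187605) on the same chromosome at 73984910 to 74108176, plus strand. DNMT3B (ENSG00000088305) is on chromosome 20 at 32762385 to 32809359, plus strand, and DNMT3L (ENSG00000142182) on chromosome 21 at 44246339 to 44262216, minus strand. TET1 (ENSG00000138336) is on chromosome 10 at 68560337 to 68694487 and TET2 (ENSG00000168769) on chromosome 4 at 105145875 to 105279816, both on the plus strand. All 8 are annotated as protein-coding. DNMT1 overlaps S1PR2 on the same strand and TET3 overlaps AC073046.1 on the same strand, so reads could have been split or lost there.

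UHRF1 and DNMT1 act during DNA replication, and genes used in S phase often carry binding sites of E2F factors next to their start. The promoter windows of RefSeq (GRCh38.p14, 250 bases before to 50 bases after a start site) were therefore searched for the 8-base E2F core in the forms TTTGGCGC, TTTCCCGC, TTTCGCGC and TTTGCCGC on both strands. RefSeq windows were found for 7 of the 8 genes, 18 windows in all, and 3 of them held a match. They belonged to UHRF1 (2 of its windows) and DNMT1. The 3 windows are shown because these genes are read against the cell cycle further on, with the match in capitals.
UHRF1 chr19:4909251-4909550, plus strand: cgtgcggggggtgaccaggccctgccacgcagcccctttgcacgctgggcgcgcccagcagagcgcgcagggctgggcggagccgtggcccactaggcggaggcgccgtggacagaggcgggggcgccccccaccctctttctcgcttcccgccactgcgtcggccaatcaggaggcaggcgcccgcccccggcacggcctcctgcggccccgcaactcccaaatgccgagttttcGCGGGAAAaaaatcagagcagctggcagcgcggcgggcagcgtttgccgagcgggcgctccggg
UHRF1 chr19:4909894-4910193, plus strand: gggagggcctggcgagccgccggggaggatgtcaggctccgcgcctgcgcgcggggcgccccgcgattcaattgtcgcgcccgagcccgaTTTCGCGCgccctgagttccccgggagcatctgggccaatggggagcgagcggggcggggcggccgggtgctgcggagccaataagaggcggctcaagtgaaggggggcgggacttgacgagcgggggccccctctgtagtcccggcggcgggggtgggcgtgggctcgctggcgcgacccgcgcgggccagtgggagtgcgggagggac
DNMT1 chr19:10194904-10195203, minus strand: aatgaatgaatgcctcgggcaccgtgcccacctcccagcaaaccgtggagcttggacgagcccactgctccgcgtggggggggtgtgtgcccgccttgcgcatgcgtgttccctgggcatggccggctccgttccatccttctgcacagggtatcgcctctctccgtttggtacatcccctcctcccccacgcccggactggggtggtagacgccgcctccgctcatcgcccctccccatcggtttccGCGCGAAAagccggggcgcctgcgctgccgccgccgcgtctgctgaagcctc
The match began at position -14 from the start site in the upper UHRF1 window, at -160 in the lower one and at -2 in DNMT1. Over all promoter windows of RefSeq, 1164 of 35116 (3.31%) held a match, and by gene 1090 of 27305 (3.99%). Among the S-phase genes used below, 12 of the 19 with a window held a match (63.2%), against 2 of 15 G2/M genes. A match describes letters only and is not a measured binding site.

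In the libraries as a whole, DNMT3B was the most abundant of the 8 genes by UMIs and DNMT3L was close to absent. DNMT3B reached 215.2 CPM (interval 212.3 to 218.1) among cells labelled WT and 257.4 CPM (interval 255.1 to 259.8) among cells labelled GATA3 KO. Its log2 ratio, here always that of GATA3 KO over WT on CPM plus 1 unless states are compared, was 0.26 (0.23 to 0.28). For DNMT1 the levels were 108.2 CPM (106.1 to 110.2) and 147.9 CPM (146.1 to 149.7), which gave a log2 ratio of 0.45 (0.42 to 0.48). DNMT3A had 53.1 CPM (51.7 to 54.6) and 70.8 CPM (69.5 to 72.0), with a log2 ratio of 0.41 (0.36 to 0.45). These 3 methyltransferase transcripts were each higher in cells labelled GATA3 KO, by less than 1.5-fold.

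TET1 stood at 71.1 CPM (69.4 to 72.8) and 68.9 CPM (67.7 to 70.1) in the libraries labelled WT and GATA3 KO, and its log2 ratio of -0.04 (-0.09 to -0.00) was close to 0. UHRF1 was slightly lower in cells labelled GATA3 KO, with 27.5 CPM (26.8 to 28.3) against 30.3 CPM (29.2 to 31.4) and a log2 ratio of -0.13 (-0.20 to -0.07). With the mean of per-cell CPM in place of pooled UMIs, the ratios of UHRF1 and TET1 had the other sign, at 0.04 and 0.01. TET3 stood at 6.60 CPM (6.10 to 7.12) and 5.17 CPM (4.84 to 5.52), and TET2 at 1.67 CPM (1.42 to 1.94) and 1.94 CPM (1.74 to 2.16). DNMT3L had 3 UMIs in the library labelled WT and 0 UMIs in the library labelled GATA3 KO, where 0 UMIs allow a level of up to 0.0171 CPM. Thus TET1 had the most UMIs of the TET genes, and DNMT3L was not detectable in the library labelled GATA3 KO.

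A gene was called higher or lower past 1.5-fold on CPM plus 1, provided that the group with more of it reached 5 CPM. By that rule 6 of the 8 genes could be read, with TET2 and DNMT3L below the limit. None of the 6 was called between the libraries, 0 higher and 0 lower, while of the 9992 genes read 14.3% were called higher and 7.82% lower with GATA3 targeted. The median log2 ratio of the 6 genes was 0.11, beside 0.08 over all genes read.

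Levels in a whole library depend on which cells it holds, so cells were next divided by SOX2, a pluripotency factor, MIXL1, a primitive-streak factor, and TFAP2A, a factor of amnion, trophectoderm and surface ectoderm. Each cell of at least 20000 UMIs was thinned at random to 20000 UMIs, which left out 548 and 789 shallower cells. A cell was MIXL1-positive with at least 2 UMIs of MIXL1 and fewer than 2 of TFAP2A, and TFAP2A-positive the other way round. Cells with neither transcript were SOX2-high with at least 6 SOX2 UMIs, SOX2-middle with 3 to 5 and SOX2-low with at most 2. None of the 8 genes was used for this division.

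SOX2-high cells made up 19.7% of cells (388 of 1971) in the library labelled WT and 57.3% (2098 of 3661) in the library labelled GATA3 KO. MIXL1-positive cells made up 27.7% (546 cells) and 1.09% (40 cells), and TFAP2A-positive cells 5.07% (100 cells) and 14.7% (539 cells). The 40 MIXL1-positive cells labelled GATA3 KO are too few for counts of called genes and are given by value only. Both markers together were found in 28 and 3 cells, and another 290 and 394 cells had no more than 1 UMI of MIXL1 or TFAP2A but not 0 of both. These unresolved cells were left out of the 5 states and are given by value further on.

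Marker lists were read in each state. The sums leave out SOX2, MIXL1 and TFAP2A, which defined the states. In SOX2-high cells the 5 early neural ectoderm genes summed to 100.4 CPM labelled WT and 121.4 CPM labelled GATA3 KO, with only IRX2 at 5 CPM. Their sums in MIXL1-positive and TFAP2A-positive cells were 11.5 and 21.6 CPM labelled WT and 17.5 and 52.5 CPM labelled GATA3 KO. In MIXL1-positive cells labelled WT the 6 other primitive-streak genes all reached 5 CPM, with 564.6 CPM summed against 13.6 CPM in SOX2-high cells, and EOMES stood at 180.3 CPM. The 40 MIXL1-positive cells labelled GATA3 KO had 284.8 CPM summed with 5 of 6 genes at 5 CPM and no MESP1 UMI, against 48.5 CPM of MESP1 labelled WT. They also held more SOX2 (118.5 against 38.5 CPM) and NANOG (138.5 against 76.2 CPM), so the MIXL1-positive cells of the 2 libraries were not alike. In TFAP2A-positive cells 4 of 7 amnion and trophectoderm genes reached 5 CPM labelled WT and 5 of 7 labelled GATA3 KO. The 7 genes summed to 236.9 and 169.9 CPM there, against 12.7 and 12.2 CPM in SOX2-high cells. HAND1 stood at 94.5 and 74.3 CPM in TFAP2A-positive cells, while VTCN1 had no UMI there in either library. KRT7, counted among the 5 labelled GATA3 KO, was higher in SOX2-high cells, at 9.86 against 7.60 CPM. Labelled WT it had 8.66 against 4.90 CPM. The 4 genes of the germ cell list summed to 105.5 CPM in TFAP2A-positive cells labelled WT, with 3 of 4 at 5 CPM. Labelled GATA3 KO they summed to 45.3 CPM with 2 of 4. TFAP2C made up 55.9 and 38.6 CPM of these sums. NANOS3 stood at 5.92 and 5.65 CPM, against 0.54 and 0.70 CPM in SOX2-high cells. DND1, at 1.63 and 0.66 CPM, was no higher than in SOX2-high cells, at 1.79 and 1.00 CPM. SOX17, which marks endoderm and germ cells, stood at 42.04 CPM in TFAP2A-positive cells labelled WT and 0.35 CPM in those labelled GATA3 KO. The TFAP2A-positive cells thus differed between the libraries too. The 7 pluripotency genes other than SOX2 summed to 3475.0, 2712.0 and 2085.6 CPM in SOX2-high, MIXL1-positive and TFAP2A-positive cells labelled WT. Labelled GATA3 KO the sums were 4049.3, 4025.1 and 2954.9 CPM, so that of the 40 MIXL1-positive cells was close to that of SOX2-high cells. Labelled WT, TDGF1 went from 581.9 CPM in SOX2-high to 118.4 CPM in TFAP2A-positive cells and LIN28A from 536.6 to 259.6 CPM. POU5F1 stayed between 857.8 and 874.0 CPM across these states labelled WT. NANOG was lower in SOX2-high cells labelled WT (64.2 CPM) than in SOX2-middle (84.9 CPM) and SOX2-low cells (82.8 CPM). Labelled GATA3 KO the NANOG levels of these were 51.3, 69.7 and 73.6 CPM.

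DNMT3B differed most between states. In the library labelled WT it stood at 359.0 CPM (350.4 to 367.8) in SOX2-high, 291.8 CPM in SOX2-middle, 179.6 CPM in SOX2-low, 143.4 CPM in MIXL1-positive and 82.0 CPM in TFAP2A-positive cells. In the library labelled GATA3 KO the same order held, with 318.0, 268.4, 171.0, 121.0 and 87.8 CPM. From SOX2-high to MIXL1-positive cells the level was 2.49-fold lower in the library labelled WT, a log2 ratio of -1.32 (-1.38 to -1.26), and 2.61-fold lower in the library labelled GATA3 KO (-1.39, -1.58 to -1.20, over 40 cells). From SOX2-high to TFAP2A-positive cells it was 4.34-fold lower labelled WT (-2.12, -2.26 to -1.97) and 3.59-fold lower labelled GATA3 KO (-1.84, -1.91 to -1.78). Only 65 of 9971 genes read had a lower ratio than DNMT3B in that comparison labelled WT, and 39 of 10004 labelled GATA3 KO. With cells thinned to 10000 UMIs, a limit of 1 UMI for TFAP2A and MIXL1 and one of 3 UMIs for SOX2, all changed together, the log2 ratios were -1.38 and -1.37. With at least 3 UMIs of TFAP2A or MIXL1 in 20000 they were -2.37 and -2.12.

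**Figure D1:**
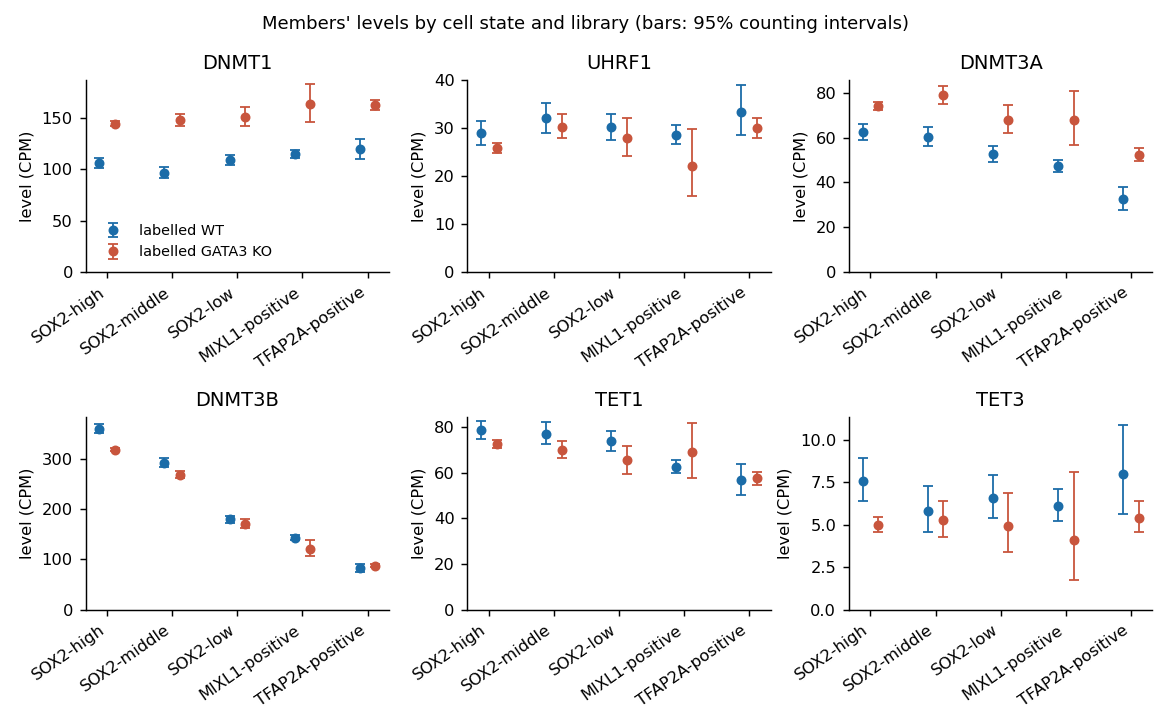
Level in CPM of 6 DNA methylation genes in 5 cell states, with blue points for the library labelled WT, red points for the library labelled GATA3 KO and bars for 95% counting intervals. DNMT3B goes from 359.0 CPM in SOX2-high to 82.0 CPM in TFAP2A-positive cells labelled WT and from 318.0 to 87.8 CPM labelled GATA3 KO, whereas DNMT1 lies higher labelled GATA3 KO in every state.

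The other de novo enzyme, DNMT3A, was lower to a lesser degree. In the library labelled WT it went from 62.4 CPM (58.8 to 66.1) in SOX2-high cells to 47.2 CPM in MIXL1-positive and 32.7 CPM in TFAP2A-positive cells, log2 ratios of -0.40 (-0.51 to -0.28) and -0.91 (-1.15 to -0.68). In the library labelled GATA3 KO it went from 74.1 CPM in SOX2-high cells to 68.0 CPM in MIXL1-positive and 52.3 CPM in TFAP2A-positive cells, log2 ratios of -0.12 (-0.38 to 0.12) and -0.49 (-0.58 to -0.41). The interval of the former crossed 0. DNMT3L, the stimulating relative of both, had at most 2 UMIs in any of these states.

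TET1, which works against the DNMT3 enzymes, was also lower outside SOX2-high cells. It stood at 78.5 CPM (74.6 to 82.7) in SOX2-high, 62.7 CPM in MIXL1-positive and 56.7 CPM in TFAP2A-positive cells labelled WT, log2 ratios of -0.32 (-0.42 to -0.22) and -0.46 (-0.65 to -0.28). Labelled GATA3 KO it stood at 72.4, 69.0 and 57.5 CPM, log2 ratios of -0.07 (-0.32 to 0.17) and -0.33 (-0.41 to -0.25). The levels of TET1 therefore spanned less than 1.5-fold across the states of either library.

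TET2 was rare in all states, and its values went the other way. It had 0.97 CPM (18 UMIs) in SOX2-high and 2.05 CPM in MIXL1-positive cells labelled WT, a log2 ratio of 0.63 (0.17 to 1.04). Labelled GATA3 KO it had 1.69 CPM in SOX2-high and 3.19 CPM in TFAP2A-positive cells, a log2 ratio of 0.64 (0.35 to 0.92), and 1.03 CPM in the 40 MIXL1-positive cells. All of these lie under the limit of 5 CPM. TET3 stood at 7.58, 6.10 and 7.96 CPM in SOX2-high, MIXL1-positive and TFAP2A-positive cells labelled WT and at 4.99, 4.12 and 5.42 CPM labelled GATA3 KO, and the intervals of its 4 ratios between states crossed 0.

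The maintenance pair did not follow DNMT3B. DNMT1 went from 106.3 CPM (101.6 to 111.1) in SOX2-high to 115.0 and 119.2 CPM in MIXL1-positive and TFAP2A-positive cells labelled WT, log2 ratios of 0.11 (0.03 to 0.19) and 0.16 (0.03 to 0.30). Without the upper limit on detected genes the latter was -0.07. Labelled GATA3 KO it went from 144.3 CPM to 163.2 and 162.5 CPM, log2 ratios of 0.18 (0.01 to 0.34) and 0.17 (0.12 to 0.22). UHRF1 stood at 29.0, 28.7 and 33.5 CPM in SOX2-high, MIXL1-positive and TFAP2A-positive cells labelled WT and at 25.9, 22.1 and 30.1 CPM labelled GATA3 KO.

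By the 1.5-fold rule, 1 of the 6 genes read was called lower in MIXL1-positive cells labelled WT (DNMT3B) and 0 higher, beside 7.75% of genes lower and 6.34% higher. In TFAP2A-positive cells labelled WT 2 were called lower (DNMT3A and DNMT3B) and 0 higher, beside 14.9% and 9.48%. In TFAP2A-positive cells labelled GATA3 KO 1 was called lower (DNMT3B) and 0 higher, beside 9.32% and 7.96%. The medians of the 6 genes in these comparisons were -0.30, -0.20 and -0.11 on the log2 scale, beside -0.04, -0.13 and -0.05 over all genes read. DNMT3B was thus called in all 3 comparisons, and DNMT3A only in TFAP2A-positive cells labelled WT. Scaling TFAP2A-positive cells labelled WT by edgeR's TMM instead of total UMIs moved all their log2 ratios up by 0.11.

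The same was visible cell by cell. In cells thinned to 20000 UMIs, the middle value of DNMT3B was 7 UMIs in SOX2-high, 3 in MIXL1-positive and 1 in TFAP2A-positive cells labelled WT, and 6, 2 and 1 UMIs labelled GATA3 KO. At least 1 DNMT3B UMI was found in 99.7% of SOX2-high cells (387 of 388, exact Clopper-Pearson lower bound 98.6%), 91.6% of MIXL1-positive cells and 70.0% of TFAP2A-positive cells (60.0 to 78.8%) labelled WT. Labelled GATA3 KO these shares were 99.2%, 85.0% and 72.2% (68.2 to 75.9%). Without thinning the TFAP2A-positive shares were 94.0% and 91.7%. No cell type here is known to lack DNMT3B, so the part that free RNA has in the low shares was not tested. DNMT3A was found in 69.6%, 61.9% and 49.0% of thinned cells of the 3 states labelled WT and in 74.7%, 72.5% and 61.0% labelled GATA3 KO.

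**Figure D2:**
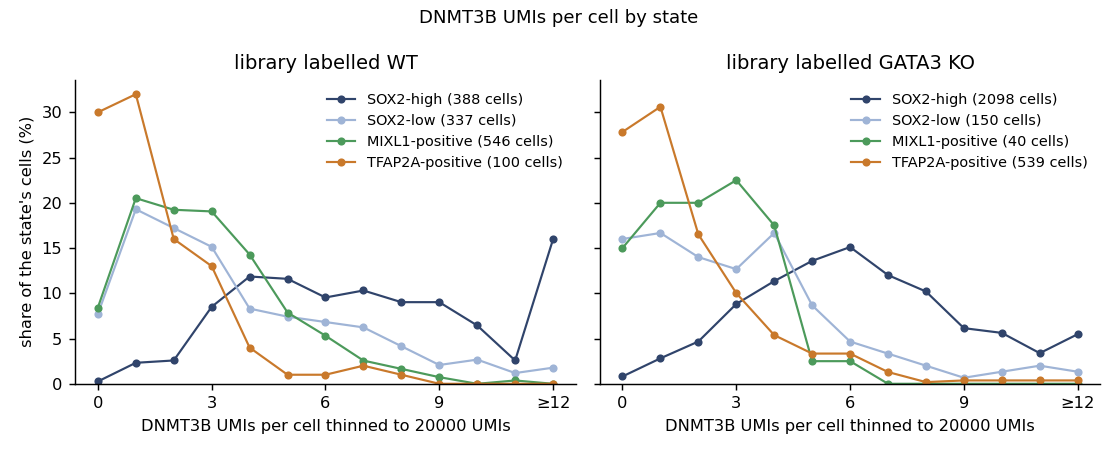
Share of the cells of a state (vertical axis, %) with a given number of DNMT3B UMIs (horizontal axis) after thinning to 20000 UMIs, per library, where the last point pools cells with 12 or more. TFAP2A-positive cells peak at 0 to 1 UMI in both libraries, with 30.0% and 27.8% of cells at 0, while SOX2-high cells spread around middle values of 7 and 6.

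DNMT3B was graded along SOX2. Among cells with neither MIXL1 nor TFAP2A, it stood at 111.4 CPM in cells with 0 SOX2 UMIs, 218.7 CPM with 1 to 2, 291.8 CPM with 3 to 5, 342.4 CPM with 6 to 9 and 400.1 CPM with 10 or more, labelled WT. Labelled GATA3 KO the levels over the same ranges were 69.2, 193.7, 268.4, 304.6 and 328.6 CPM, so each step up in SOX2 came with a higher level in both libraries. DNMT3A over these ranges went from 44.3 to 63.3 CPM labelled WT and from 48.5 to 73.3 CPM labelled GATA3 KO, and TET1 from 74.0 to 76.4 CPM and from 65.2 to 72.6 CPM.

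Along TFAP2A the level of DNMT3B was lower at each step. Labelled WT it stood at 191.9 CPM in cells with 1 UMI, 91.5 CPM with 2 to 3 and 60.8 CPM with 4 or more (31 cells). Labelled GATA3 KO it stood at 214.8, 115.2 and 62.9 CPM (280 cells in the last range). Along MIXL1 it stood at 177.2 CPM with 1 UMI, 138.5 CPM with 2 to 4, 140.3 CPM with 5 to 9 and 152.2 CPM with 10 or more labelled WT. Labelled GATA3 KO it was 232.2 CPM with 1 UMI and between 120.4 and 122.2 CPM in the other 3 ranges, which held 25, 10 and 5 cells. From 2 MIXL1 UMIs on the level was thus nearly even. DNMT3A was lower at each of these later steps labelled WT, at 51.9, 47.6 and 41.4 CPM.

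**Figure D3:**
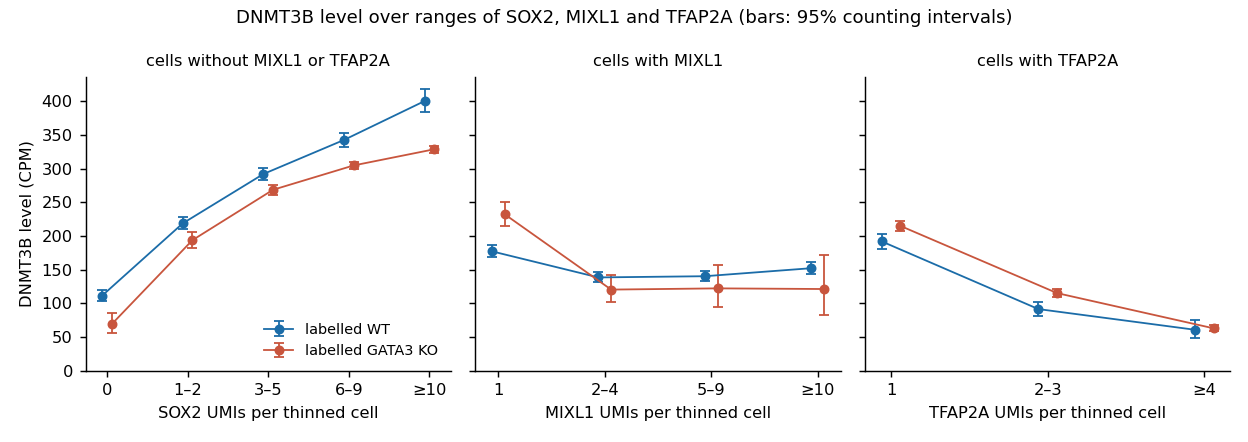
DNMT3B level in CPM over ranges of SOX2, MIXL1 and TFAP2A UMIs per thinned cell, with blue for the library labelled WT, red for the library labelled GATA3 KO and bars for 95% counting intervals. The level climbs from 111.4 to 400.1 CPM with SOX2 labelled WT, stays between 138.5 and 152.2 CPM from 2 MIXL1 UMIs on, and reaches 60.8 and 62.9 CPM at 4 or more TFAP2A UMIs.

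SOX2-high cells were further divided by NANOG, a pluripotency factor, into NANOG-high (at least 2 UMIs) and NANOG-low. DNMT3B stood at 342.7 CPM in 134 NANOG-high and 367.9 CPM in 254 NANOG-low cells labelled WT, and at 303.8 CPM in 557 and 323.2 CPM in 1541 cells labelled GATA3 KO. The log2 ratios of NANOG-high over NANOG-low were -0.10 (-0.18 to -0.03) and -0.09 (-0.13 to -0.05). DNMT3A had the opposite sign, with 0.26 (0.09 to 0.43) and 0.08 (0.00 to 0.15). The de novo enzymes thus differed in sign along NANOG, by small amounts. UHRF1 was at 25.5 and 31.0 CPM labelled WT and 23.7 and 26.8 CPM labelled GATA3 KO in NANOG-high and NANOG-low cells, and 20.9% and 37.8% of these cells labelled WT were in the top S-phase range described below.

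DNMT3B, higher over all cells labelled GATA3 KO, was lower there in some states and not in others. Within SOX2-high cells DNMT3B was lower labelled GATA3 KO, with a log2 ratio of -0.17 (-0.21 to -0.14). In SOX2-middle and SOX2-low cells it had -0.12 (-0.18 to -0.06) and -0.07 (-0.17 to 0.03). Within MIXL1-positive cells the ratio was -0.24 (-0.44 to -0.05), where scaling by TMM moved all ratios by -0.12, and within TFAP2A-positive cells it was 0.10 (-0.06 to 0.25). The part that the different marker levels of the MIXL1-positive cells had in this was not tested. In the unresolved cells DNMT3B was higher labelled GATA3 KO, at 218.7 against 187.5 CPM and a log2 ratio of 0.22 (0.15 to 0.29). When the levels of the library labelled WT were weighted by the share of UMIs that each state had in the library labelled GATA3 KO, the level of DNMT3B went from 215.0 to 280.3 CPM, a log2 difference of 0.38. At the same state weights, those of the library labelled WT, GATA3 KO over WT was -0.10, and at the weights of the library labelled GATA3 KO it was -0.12. For the other members the log2 difference from the state weights was smaller, with -0.25 for TET2, which is under 5 CPM, 0.12 for TET3, 0.08 for DNMT3A, 0.06 for TET1, -0.02 for DNMT1 and -0.00 for UHRF1.

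DNMT1 was higher labelled GATA3 KO in every state. Its log2 ratio was 0.44 (0.37 to 0.51) in SOX2-high, 0.50 (0.33 to 0.67) in MIXL1-positive and 0.44 (0.32 to 0.57) in TFAP2A-positive cells. In SOX2-middle cells it was larger, at 147.7 against 96.7 CPM and 0.61 (0.51 to 0.70), and it was 0.46 (0.35 to 0.58) in SOX2-low and 0.54 (0.45 to 0.64) in unresolved cells. DNMT3A was higher by 0.24 (0.16 to 0.33), 0.52 (0.25 to 0.77) and 0.66 (0.43 to 0.90) in SOX2-high, MIXL1-positive and TFAP2A-positive cells. TET3 was lower by value, at -0.52 (-0.76 to -0.27) in SOX2-high and -0.48 (-0.94 to -0.00) in TFAP2A-positive cells. In MIXL1-positive cells TET3 had -0.47 (-1.38 to 0.39). In SOX2-middle, SOX2-low and unresolved cells it had -0.12, -0.35 and -0.16, with intervals that crossed 0. In SOX2-high, MIXL1-positive and TFAP2A-positive cells TET1 had -0.12 (-0.20 to -0.03), 0.14 (-0.12 to 0.39) and 0.02 (-0.16 to 0.20). UHRF1 had -0.16 (-0.29 to -0.02), -0.36 (-0.81 to 0.07) and -0.15 (-0.39 to 0.09) in these. Between libraries in SOX2-high cells 0 of the 6 genes were called higher and 0 lower, beside 12% and 6.69% of genes, and in TFAP2A-positive cells 1 was called higher (DNMT3A) and 0 lower, beside 17.8% and 7.67%. The DNMT3A call was lost without the upper limit on detected genes (0.56), with states set at 10000 UMIs (0.52) and at 2-fold. The part that the different TFAP2C and SOX17 levels of the TFAP2A-positive cells had in the DNMT3A value was not tested.

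The cell cycle was read from 24 S-phase and 20 G2/M genes, and the thinned cells of each library were placed in 3 equal ranges by the summed UMIs of either list. UHRF1 differed far more between these ranges than DNMT3B did. UHRF1 stood at 18.9, 29.4 and 43.5 CPM from the bottom to the top S-phase range labelled WT and at 15.5, 24.3 and 44.3 CPM labelled GATA3 KO, log2 ratios of top over bottom of 1.16 (1.03 to 1.30) and 1.45 (1.35 to 1.56). Over the G2/M ranges it went the other way, with log2 ratios of -1.09 (-1.22 to -0.96) and -1.30 (-1.40 to -1.19). DNMT1, whose promoter window above also holds the E2F letters, had 99.9, 107.2 and 118.3 CPM labelled WT and 137.0, 148.7 and 162.4 CPM labelled GATA3 KO over the S-phase ranges, a log2 ratio of 0.24 in both. TET1, whose promoter windows held no match, had 0.25 and 0.29, DNMT3A 0.10 and 0.18, and DNMT3B 0.05 and 0.09. Over the G2/M ranges DNMT3B had log2 ratios of 0.23 (0.18 to 0.28) labelled WT and 0.08 (0.05 to 0.11) labelled GATA3 KO. Among the 6 members read, UHRF1 thus had the largest ratio between S-phase ranges and DNMT3B the largest between states.

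**Figure D4:**
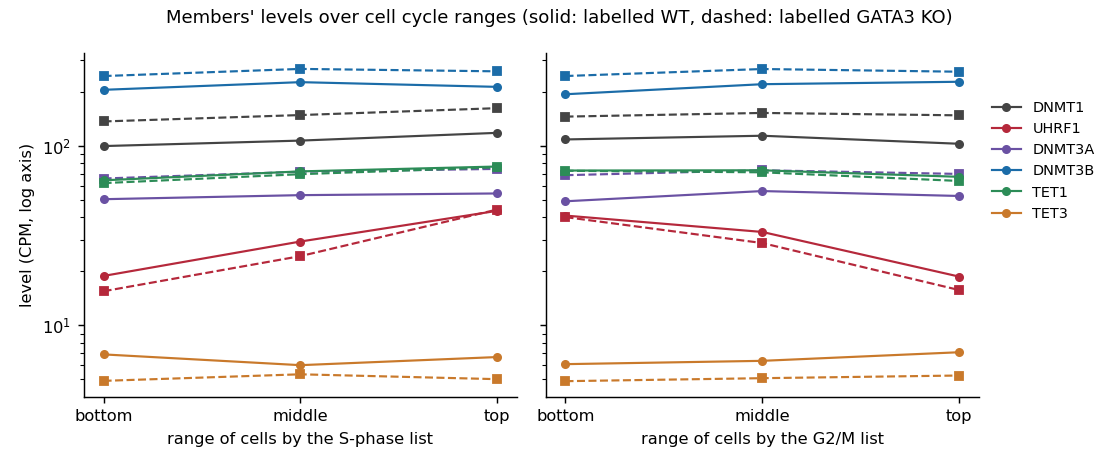
Level in CPM on a log axis of 6 members over 3 equal ranges of cells ranked by the S-phase list (left) and the G2/M list (right), with solid lines for the library labelled WT and dashed lines for the library labelled GATA3 KO. UHRF1 climbs from 18.9 to 43.5 CPM and from 15.5 to 44.3 CPM over the S-phase ranges and declines over the G2/M ranges, while the other lines change less.

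Within states UHRF1 behaved alike except in TFAP2A-positive cells labelled WT. Top over bottom S-phase range, its log2 ratio was 1.54 (1.22 to 1.86) in SOX2-high and 1.101 (0.85 to 1.36) in MIXL1-positive cells labelled WT, and 1.39 (1.25 to 1.53) in SOX2-high and 1.65 (1.39 to 1.93) in TFAP2A-positive cells labelled GATA3 KO. In TFAP2A-positive cells labelled WT it was 0.37 (-0.12 to 0.87), over 45 and 37 cells. The difference of DNMT3B between states was as large inside each S-phase range: TFAP2A-positive over SOX2-high gave -2.16, -1.93 and -2.16 labelled WT and -1.93, -1.80 and -1.82 labelled GATA3 KO from the bottom to the top range. The share of cells in the top S-phase range was 32.0% in SOX2-high, 33.5% in MIXL1-positive and 37.0% in TFAP2A-positive cells labelled WT.

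DNMT3B lies on chromosome 20 near ID1, a BMP target, and BCL2L1, an inhibitor of cell death, where several genes stood higher in cells labelled GATA3 KO. HM13, ID1, BCL2L1 and TPX2, all at -1.25 to -1.02 Mb from DNMT3B, had log2 ratios of 1.42, 1.17, 1.56 and 0.86. Next to DNMT3B the values were lower. COMMD7 on its left had -0.11 (-0.16 to -0.06), and MAPRE1 and AL035071.1 on its right had -0.29 (-0.33 to -0.26) and -0.12 (-0.23 to -0.02). Within 0.5 Mb, 4 genes to the left had a median of 0.06 and 2 genes to the right -0.21. Up to 3 Mb, 13 genes to the left had a median of 0.26 and 35 genes to the right 0.36, beside 0.08 over all genes read. Within SOX2-high cells DNMT3B had -0.17, COMMD7 0.02 and MAPRE1 -0.30, against 1.06 for ID1 and 1.32 for BCL2L1. The study's methods give the clone as karyotypically normal, and DNA copy number was not measured here.

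**Figure D5:**
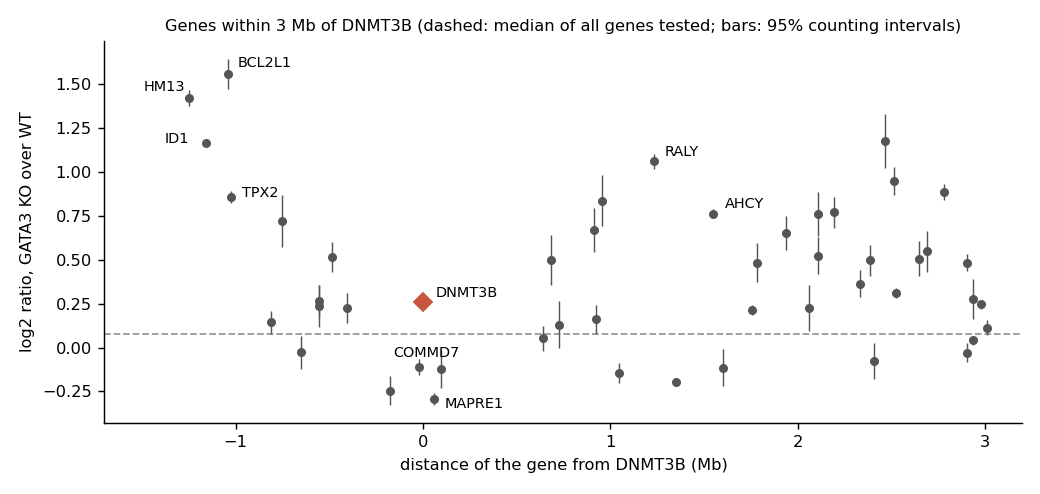
Log2 ratio of GATA3 KO over WT (vertical axis) of genes of at least 5 CPM against their distance in Mb from DNMT3B (horizontal axis, 0 for DNMT3B, shown as a red diamond), with bars for 95% counting intervals and a dashed line at the median of all genes read, 0.08. HM13, ID1 and BCL2L1 on the left lie between 1.17 and 1.56, whereas COMMD7 and MAPRE1 beside DNMT3B lie below 0.

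The chromosomal surroundings of the other members were read in the same way within 1 Mb. The 37 neighbours of DNMT1 had a median log2 ratio of 0.38 and DNMT1 itself 0.45. The 34 neighbours of UHRF1 had a median of 0.51, against -0.13 for UHRF1. For DNMT3A the 13 neighbours had 0.14 against 0.41, for TET1 the 14 neighbours had -0.13 against -0.04, and for TET3 the 25 neighbours had 0.29 against -0.30. DNMT1 was thus close to the median of its neighbours, and UHRF1 and TET3 were below the medians of theirs. The neighbours ran from -0.84 to 1.03 for DNMT1, from -1.03 to 1.13 for UHRF1 and from -0.72 to 1.04 for TET3. These members lay inside those ranges, and the median over all genes read was 0.08. The part that chromosomal position had in these values was not tested.

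Other genes that act on DNA methylation were read from a list of 42. From SOX2-high to TFAP2A-positive cells, 7 of 35 genes read were called lower and 4 higher labelled WT, beside 14.9% and 9.48% of all genes read, and 6 of 36 lower and 4 higher labelled GATA3 KO, beside 9.32% and 7.96%, with medians of -0.19 and -0.07 beside -0.13 and -0.05 over all genes. HELLS, a chromatin remodeller needed for methylation of repeats, was lower in both, from 300.0 to 159.2 CPM labelled WT (log2 ratio -0.91) and with a log2 ratio of -0.66 labelled GATA3 KO. ZBTB24 had -1.17 and -0.69, whereas CDCA7 of the same list had 0.41 and 0.28, under the called fold. TRDMT1, an RNA methyltransferase related to the DNMT family, had -1.13 and -0.83, and GADD45G, of a family linked to demethylation, -1.93 and -1.61. Higher in both were its relatives GADD45A (1.19 and 1.55) and GADD45B (1.98 and 2.62), the CXXC-domain gene CXXC5 (1.00 and 0.91) and the methyl-CpG binding factor ZBTB38 (0.87 and 0.84).

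From SOX2-high to MIXL1-positive cells labelled WT, 5 of 35 genes of the list were called lower and 5 higher, beside 7.75% and 6.34% of all genes read, with a median of -0.06 beside -0.04. HELLS (-0.76), ZBTB24 (-0.82), GADD45G and TRDMT1 were again lower. QSER1, which is known to protect DNA from de novo methylation together with TET1, was called lower too, at -0.77. From SOX2-high to TFAP2A-positive cells QSER1 had -0.96 labelled WT, also called lower, and -0.55 labelled GATA3 KO, under the called fold. In MIXL1-positive cells labelled WT, GADD45B (2.14), GADD45A (1.09), ZBTB38 (1.01) and CXXC5 (1.01) were again higher. IDH1, a source of the 2-oxoglutarate that TET enzymes need, was higher only in this comparison of the 3, with 0.78.

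Between the libraries 7 of 36 genes of the list were called higher and 1 lower, beside 14.3% and 7.82% of all genes read, with a median of 0.16 beside 0.08. APOBEC3B, a cytidine deaminase, had a log2 ratio of 1.79, IDH2, the mitochondrial relative of IDH1, 1.09, TRIM28, a corepressor that keeps methylation at imprinted loci, 0.96, and AHCY, which clears the by-product of methylation, 0.76. AHCY lies 1.55 Mb to the right of DNMT3B. Also called higher between the libraries were GADD45G (0.94), MBD3 (0.78) and ZBTB24 (0.65). APOBEC3B, IDH2, TRIM28 and AHCY were called higher again within SOX2-high cells, at 2.26, 0.89, 0.86 and 0.73. MBD3 (0.84) and CXXC5 (0.62) were called higher there too, beside 12% of genes read, while GADD45G (0.34) and ZBTB24 (0.35) were not. GADD45B was called lower, at -1.19 over all cells and -0.78 within SOX2-high cells.

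Genes with the most similar pattern to each member were ranked by Pearson's r of log2(CPM + 1) over 11 points, the states of both libraries with at least 50 cells, among 5128 genes of at least 20 CPM. The points share cells, libraries and the markers that defined them, so r is a description. DNMT3B was most like FKBP1B (0.99), ALDH1B1 (0.99) and MYO10 (0.98), and TET1 like FOXD3-AS1 (0.98), BOD1 (0.98) and PHYH (0.98). DNMT3A was most like YTHDF2 (0.99), AACS (0.99) and ECPAS (0.98), and DNMT1 like SPINT1, CSNK2B and CHPF (each 0.99 or 0.98). Likeness was weaker for UHRF1, with MYO6 (0.82), CTSL (0.80) and DPM1 (0.80), and for TET3, with SYF2 (0.92), CTNNB1 (0.91) and RAD23B (0.90). Among the members, DNMT3B and TET1 had the highest r (0.94), DNMT3A and DNMT3B had 0.77, and DNMT1 and DNMT3B had -0.28.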

How the data were processed

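The authors made 10x Chromium 3′ v3 libraries, aligned reads with Cell Ranger 3.0.2 to its GRCh38 reference and deposited raw UMI counts per gene for the barcodes called as cells. No limit on genes or mitochondrial share had been applied to these counts. The members and gene lists were chosen with earlier results of these data known.

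Here cells with over 7500 detected genes or over 25% mitochondrial counts, the limits of the study, were removed. No cell failed both. Doublets were not called, beyond the gene limit and the removal of cells with both MIXL1 and TFAP2A. UMIs were summed over cells and divided by the total. Poisson (level), exact binomial (ratio) and Clopper-Pearson (share) intervals of 95% were computed in Python 3.11.15 with scipy 1.17.1, and cover counting error only. Ratios were taken on the log2 scale after 1 CPM had been added to both levels as a pseudocount, which understates changes of low genes. States were set on cells thinned to 20000 UMIs (seed 42), and levels used all UMIs of those cells. Calls used 1.5-fold among genes of at least 5 CPM, and states of fewer than 50 cells gave no calls. Scalings by edgeR 4.0.16 (TMM) and DESeq2 1.42.0 (size factors) were alternatives. The calls and intervals were checked on simulated counts.

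Positions came from the GENCODE annotation of GRCh38, which placed 33113 genes by identifier. Named genes were the 8 members, genes of the 42-gene list past 1.5-fold (at most 8 by size in a comparison), the 3 genes of at least 20 CPM most like each member, neighbours of DNMT3B on chromosome 20 and marker genes. Near-identical copies or overlapping genes could share reads.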

Additional observations from a re-analysis of the deposited data

How the results depend on the processing

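No paired analysis was possible because there was 1 library per group, and for the same reason no replicate could be left out. Against 18 alternatives, a member's log2 ratio stayed within its counting interval in 530 values and moved beyond it in 39, and numbers of called members kept within 1.5 times of the main number in 168 values and not in 12. DNMT3B was lower by over 1.5-fold in MIXL1-positive and TFAP2A-positive cells under every alternative run in both libraries, with log2 ratios from -1.47 to -1.24 (MIXL1-positive, WT), -1.43 to -0.83 (MIXL1-positive, GATA3 KO, 40 cells), -2.37 to -1.38 (TFAP2A-positive, WT) and -2.12 to -1.37 (TFAP2A-positive, GATA3 KO). Its ratio between libraries ranged from 0.15 (no upper limit on genes) to 0.31 (mean of per-cell CPM), and within SOX2-high cells from -0.29 to -0.12. Within TFAP2A-positive cells it was -0.18, and within MIXL1-positive cells 0.23, where states were set at 10000 UMIs with 1 UMI of MIXL1 or TFAP2A and 3 of SOX2.

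Between the libraries in TFAP2A-positive cells, the number of members called lower went from 0 to 1 with no upper limit on genes, with 10000-UMI states and with at least 3 UMIs of TFAP2A or MIXL1, and the number called higher went from 1 to 0 with 10000-UMI states and at 2-fold. With no upper limit on genes the number called higher stayed 1, with DNMT1 (0.69) called in place of DNMT3A (0.56). In SOX2-high cells between the libraries the number lower went from 0 to 1 with SOX2-high at 10 UMIs or more, with a pseudocount of 0.1 CPM and without the tenth of cells with most UMIs. For TFAP2A-positive over SOX2-high cells the number lower went from 1 to 2 labelled GATA3 KO with at least 3 UMIs, and from 2 to 1 labelled WT at 2-fold, and the number higher went from 0 to 1 labelled GATA3 KO without a limit on low levels. Without that limit the number higher in MIXL1-positive cells labelled WT also went from 0 to 1. The cause of these changes was not tested. Between the libraries TET3 ranged from -0.43 to -0.00. The ratios near 0 changed sign most often: UHRF1 in MIXL1-positive cells labelled WT under 7 of 13 alternatives and TET1 between the TFAP2A-positive cells of the libraries under 6 of 12. TET2, at under 5 CPM, and DNMT3L were limited by depth.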
